A study of Rattus norvegicus with 12 samples.

Results

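The genes described here are those of the peroxisome and of fatty acid oxidation: the peroxins, the ABCD transporters, the acyl-CoA oxidases, the long-chain acyl-CoA synthetases, the acyl-CoA thioesterases, the carnitine acyltransferases and the enzymes of the mitochondrial oxidation spiral. They were matched by gene symbol, from the annotation of the array, with no threshold on a measured value. Of 14218 genes with a probe set of their own, 59 matched, through 79 probe sets, and where a gene had several, the one with the highest mean over the arrays stood for it. Of the 59, 58 passed the cutoff on low signals (a log2 signal above 4.3, or a signal of 19.7, on at least 3 arrays), and 56 were above it on all 12 arrays. The remaining gene, the thioesterase Acot12, was above it on 1 array and was not tested.

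Fatty acids enter oxidation as acyl-CoA esters, which long-chain acyl-CoA synthetases form at the expense of ATP and thioesterases split again. Mitochondria take up long-chain acyl groups as carnitine esters and shorten them by repeated rounds of dehydrogenation, hydration, a second dehydrogenation and thiolytic cleavage. Very long-chain and branched fatty acids are first shortened in the peroxisome, which imports them through ABCD transporters and imports its enzymes, already folded, through proteins called peroxins. The adult brain burns mainly glucose, and most of its fatty acid oxidation is attributed to astrocytes. Inherited loss of peroxins or of ABCD transporters damages myelin and neurons.

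The samples were cortex from 6 young and 6 aged male F344 rats, an inbred strain widely used to study ageing, with 1 Affymetrix array per rat. The labels give ages of 3 to 5 months for the young and 21 to 23 months for the aged rats, and the study describes them as 3 and 21 months old. The titles name parietal cortex and the tissue field names frontal cortex. Before the tissue was taken, rats of both ages carried an implanted telemetry unit that recorded brain waves and muscle activity, and had been trained in the Morris water maze, so no rat was free of surgery or training.

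Values are deposited signal intensities on a linear scale, and differences are aged minus young on the log2 scale, fitted with limma over 13253 genes. The median signal per array was 161.6 to 171.9 in young and 167.9 to 194.3 in aged rats, highest in aged rat 6. All 9 cortex markers on the array were above the cutoff, with a summed signal of 10012 to 11216 in young and 9129 to 11459 in aged rats. No marker of another cell type passed the adjusted test, and none was below the cutoff on every array. All 11 oligodendrocyte markers and 11 of 12 microglial markers were higher in mean in aged rats, with median log2 fold changes of 0.24 and 0.25, whereas 2 of 11 neuronal markers were. The summed signal of the oligodendrocyte markers was 34648 to 51035 in young and 35965 to 59442 in aged rats, and that of the microglial markers 5158 to 6765 and 5859 to 11017, highest in aged rat 6. The 10 astrocyte markers summed to 57192 to 69887 in young and 58851 to 73102 in aged rats, with 8 higher in mean, and the neuronal markers to 62238 to 74694 and 62392 to 67092. In whole tissue, fewer cells of a type and less RNA per cell cannot be told apart, and the part of cell composition in the values below was not tested.

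No member passed an adjusted p under 0.05, a threshold that 7 of all genes passed (0.0528%). At an unadjusted p up to 0.05, 3 members were called (5.17% of 58), below the background of 9.11% of all genes. The only member higher in aged rats by this measure was Pex2, against 6.49% of all genes. Both members lower in aged rats were import receptors, Pex7 and Pex5, against a background of 2.62%. At a p up to 0.01, Pex7 and Pex2 were called, where 2.52% of all genes were. The number of higher members at a p up to 0.05 was 5 without young rat 3, 4 without aged rat 5 and 3 without aged rat 4. Of all 13253 genes, 813, 793 and 809 were higher at that threshold in these settings. The higher members also numbered 5 with the rat number as a block and 4 with the probe sets of a gene averaged. All genes gave 1091 of 13253 with the block and 900 of 13119 with averaged probe sets.

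The differences were small and their intervals mostly narrow. In 52 of 58 members the log2 fold change lay between -0.25 and 0.25, and the 95% interval lay within 1 on either side of 0 for 56 of them, the exceptions being Ehhadh and Acox2. It lay within 0.5 on either side for 48 members. The standard error had a median of 0.096 and ran from 0.04 to 0.74. The 29 dimmer members had a median SD between rats of 0.222 on the log2 scale and the 29 brighter members 0.127, so the precision was lower for the dim genes. In mean, 38 members were higher and 20 lower in aged rats (65.5% higher, against 56.9% of all genes), with a median log2 fold change of 0.06 against 0.02. Single rats weighed on values of this size. When each rat was left out in turn, a calculation added for all members after the data were seen, 15 of 58 members changed sign without some rat and 43 kept it. Those that changed were Pex6, Pex11g, Pex16, Pex26, Abcd2, Abcd3, Acox3, Acsl6, Acot7, Acot8, Acot9, Acot13, Acad10, Acadsb and Hadha. In 49 members, these included, the value changed sign or moved over 1.5 times, and the larger such moves are given with the genes below.

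**Figure D1:**
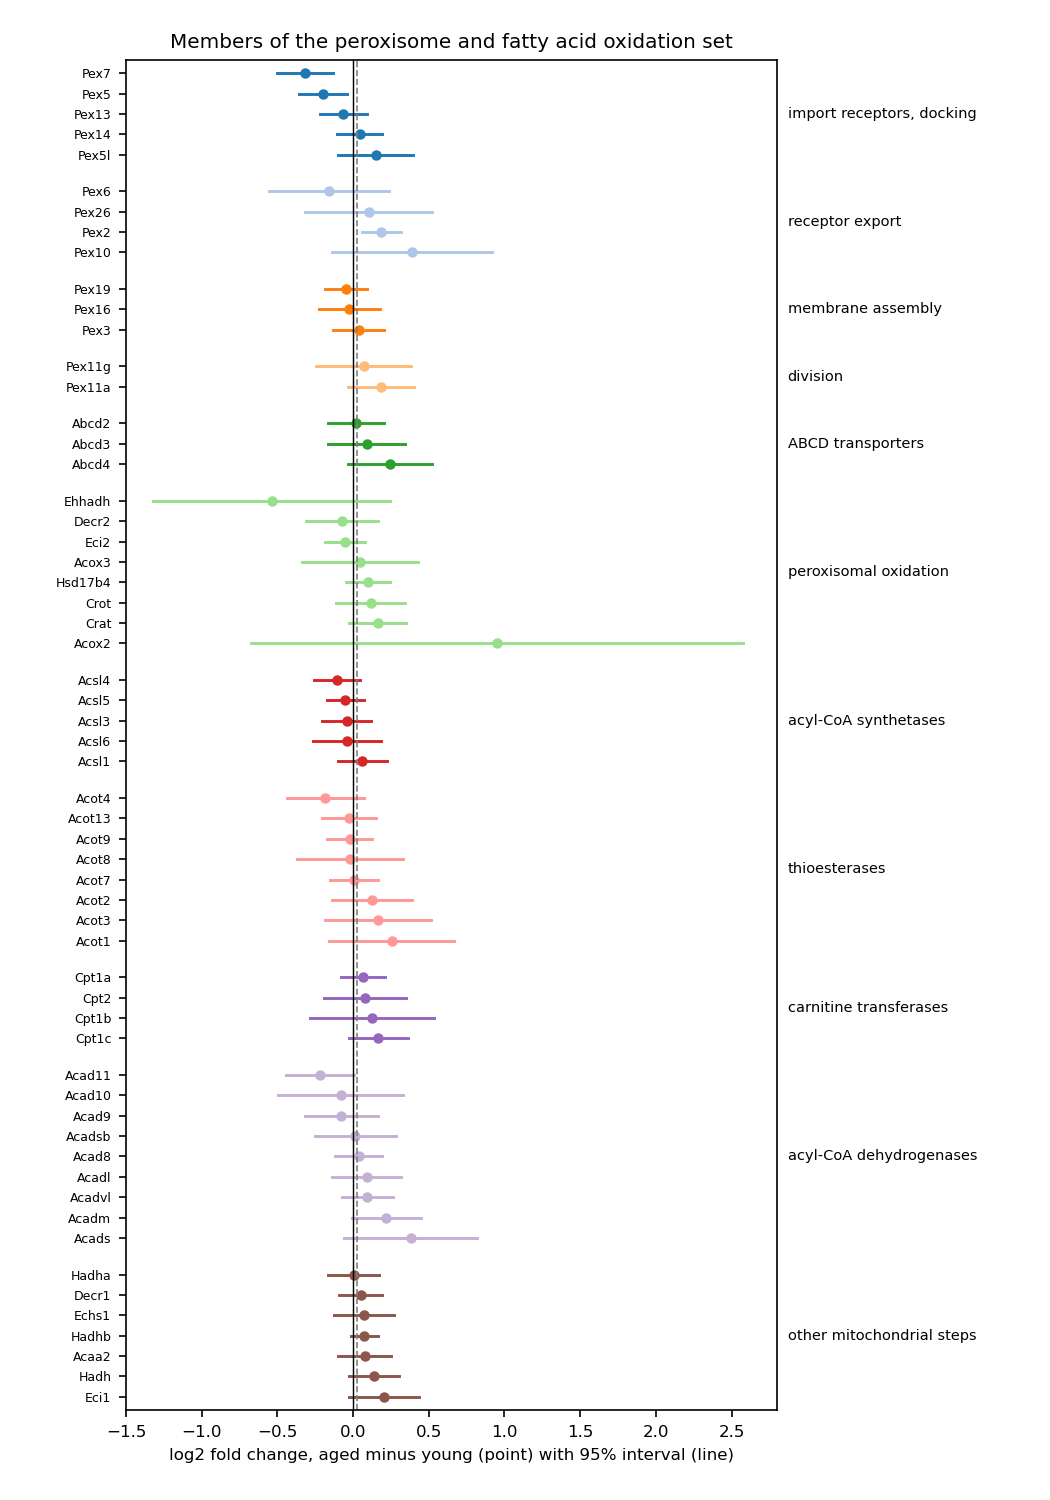
Log2 fold change of each of the 58 members tested, aged minus young (point), with its 95% interval (line), grouped and coloured by role. The solid line marks 0 and the dashed line the median of all genes tested (0.02). The intervals of Pex7 and Pex5 lie wholly below 0 and that of Pex2 wholly above it.

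Matrix proteins of the peroxisome are recognised in the cytosol by a pair of receptors. Pex5 binds a signal at the carboxyl end that most matrix enzymes carry, and Pex7 binds a signal near the amino end of a small group that includes the thiolase of peroxisomal oxidation, phytanoyl-CoA hydroxylase and the plasmalogen enzyme Agps. Both receptors dock at Pex13 and Pex14. Pex7 and Pex5 were the members with a p up to 0.05 for which a promoter sequence was given, while Pex2 had none. The 250 bases before their RefSeq start sites are shown here 5′ to 3′, from the GRCr8 assembly. The stretch of Pex7 lies at chr1:16466305-16466554 and that of Pex5 at chr4:158982734-158982983, both on the minus strand. Capitals mark the GC box (GGGCGG) as well as the box spelled CCAAT, the nuclear receptor half-site (AGGTCA) and the TATA box (TATAAA) wherever they occur on either strand, so that a stretch reading CCGCCC is a GC box of the opposite strand.
Pex7: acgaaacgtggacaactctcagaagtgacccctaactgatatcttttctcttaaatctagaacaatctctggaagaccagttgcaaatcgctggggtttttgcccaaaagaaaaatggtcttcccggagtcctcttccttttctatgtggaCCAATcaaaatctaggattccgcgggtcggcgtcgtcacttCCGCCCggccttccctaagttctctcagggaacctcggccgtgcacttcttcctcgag
Pex5: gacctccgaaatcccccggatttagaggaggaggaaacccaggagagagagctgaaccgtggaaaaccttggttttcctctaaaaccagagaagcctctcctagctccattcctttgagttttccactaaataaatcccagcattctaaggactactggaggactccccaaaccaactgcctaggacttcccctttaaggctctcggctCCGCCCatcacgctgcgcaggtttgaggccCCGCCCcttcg
The Pex7 stretch held 1 box spelled CCAAT as well as 1 GC box, and 49.6% of its bases were G or C. The Pex5 stretch held 2 GC boxes close to the start and no CCAAT, and 53.6% of its bases were G or C. Neither held a half-site or a TATA box in these letters.

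Pex7 gave the smallest p of all members. Its signal was 213 in the lowest, 290 in the median and 295 in the highest young rat, and 204, 223 and 234 in aged rats. Young rat 5, at 213, was the only young rat within the aged range, and the other 5 young rats were above every aged rat. The mean was 277 ± 31.8 (SD) in young and 222 ± 12.01 in aged rats, a ratio of 0.803 and a log2 fold change of -0.32 (SE 0.08, exact permutation p = 0.0108, limma p = 0.00279, adjusted p = 0.287). Without young rat 5 the log2 fold change was -0.39 and Pex7 alone among the members passed the adjusted threshold (limma, adjusted p = 0.0474). Of all 13253 genes, 5 passed it without that rat and 7 with all rats. The sample codes of the submitters fall in a lower and a higher series, and the difference was -0.37 within the lower and -0.28 within the higher one.

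Pex5 was the second member lower in aged rats. Its signal ran from 720 to 854 in young rats (median 787) and from 605 to 762 in aged rats (median 697). The groups overlapped, with 4 aged rats below every young rat. The mean was 788 ± 56.5 in young and 688 ± 60.4 in aged rats, a log2 fold change of -0.20 (SE 0.07, exact permutation p = 0.0195, limma p = 0.018, adjusted p = 0.451). A dimmer probe set of Pex5 averaged 140 in young and 140 in aged rats, with a log2 fold change of 0.06 (SE 0.26), and the mean of both probe sets gave -0.07 (limma, adjusted p = 0.919). The lower value of Pex5 was thus seen with its brighter probe set and not with the dimmer one. Within the lower and higher series of codes it was -0.24 and -0.17.

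The docking factors had values nearer 0. Pex13 averaged 951 in young and 908 in aged rats, a log2 fold change of -0.07, and Pex14 averaged 658 and 681, a log2 fold change of 0.04. Pex5l, a relative of Pex5 that is known in neurons as an auxiliary subunit of the HCN channels, averaged 1030 in young and 1148 in aged rats, with a log2 fold change of 0.15 (adjusted p = 0.722). Cargoes of Pex7 were read as well, although they are no members. Phyh, which starts the breakdown of phytanic acid, had a log2 fold change of -0.02 (SE 0.09), and Agps, which forms the ether bond of plasmalogens, one of -0.32 (SE 0.22). Neither passed an unadjusted p of 0.05.

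**Figure D2:**
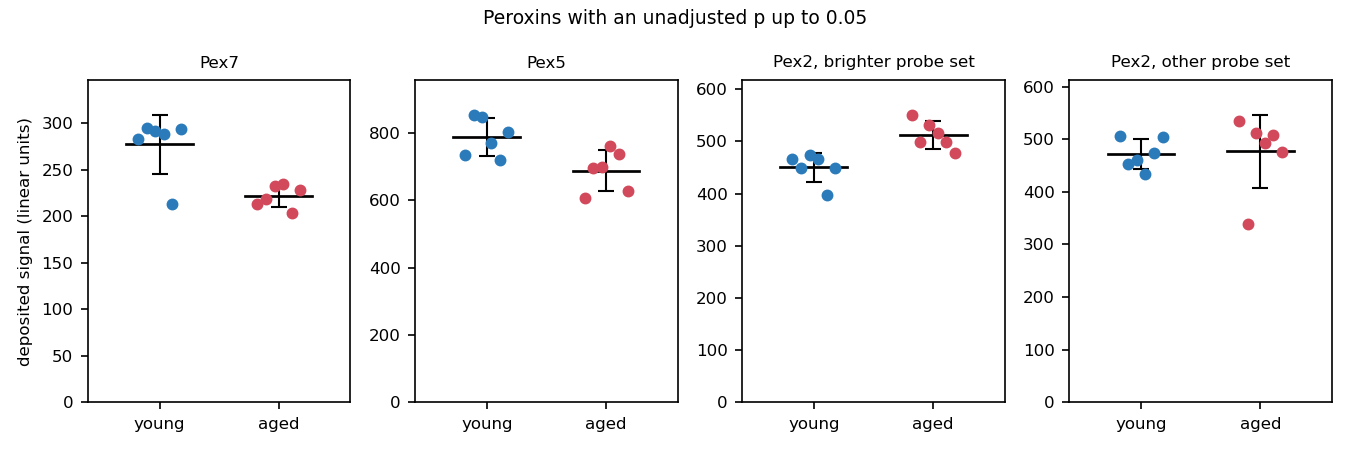
Deposited signal (linear units, axis from 0) of Pex7, Pex5 and both probe sets of Pex2 in each of 6 young (blue) and 6 aged (red) rats. Horizontal lines are means and error bars SDs. In the Pex7 panel 1 young rat, at 213, lies among the aged rats, and the 6 aged rats lie above all young rats for the brighter Pex2 probe set, whereas for the other one the groups overlap.

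After delivery, the receptors are marked with ubiquitin by a membrane complex to which the RING proteins Pex2 and Pex10 belong, and are pulled back to the cytosol with the help of the ATPase Pex6, which Pex26 holds at the membrane. Pex2 was the only member whose groups did not overlap, against 0.536% of all genes that were higher in every aged rat than in every young rat (0.777% in either direction). Its signal was 397 in the lowest, 457 in the median and 473 in the highest young rat, and 477, 507 and 551 in aged rats. All 6 aged rats were above all 6 young rats, though the gap between the groups was narrow. The mean was 450 ± 27.6 in young and 512 ± 26.5 in aged rats, a log2 fold change of 0.19 (SE 0.06, exact permutation p = 0.00216, limma p = 0.00739, adjusted p = 0.37).

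A further probe set of Pex2, of nearly equal brightness, did not show this difference. It averaged 472 ± 29.1 in young and 477 ± 70.0 in aged rats, with a log2 fold change of 0.0023 (SE 0.11). Aged rat 2 was low for this probe set, at 340, where the other aged rats were at 475 to 534. The value without that rat was not calculated. Averaged over both probe sets, the log2 fold change of Pex2 was 0.09 (limma, adjusted p = 0.728). Pex10 averaged 66.9 in young and 89.5 in aged rats (log2 fold change 0.39, SE 0.24, exact permutation p = 0.158, adjusted p = 0.662), and 0.23 remained without aged rat 6, at 147. Pex26 had a log2 fold change of 0.10, and -0.01 without young rat 5. Pex6 had one of -0.16, and 0.0056 without aged rat 1. The 4 genes of this group had a median of 0.14, with 3 of them higher in mean.

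Membrane proteins of the peroxisome are inserted by Pex3, Pex16 and the shuttling receptor Pex19. Pex19 averaged 1105 ± 34.0 in young and 1073 ± 99.2 in aged rats (log2 fold change -0.05, SE 0.06), Pex3 averaged 702 ± 59.7 and 720 ± 62.6 (0.04, SE 0.08), and Pex16 had a log2 fold change of -0.03. For these probe sets of all 3 genes the aged and young ranges overlapped widely. A dimmer probe set of Pex16 went the other way. It averaged 114 in young and 151 in aged rats, with a log2 fold change of 0.42 (SE 0.19). It did not pass the adjusted threshold over 28193 probe sets. With the probe sets of a gene averaged, Pex16 was among the 6 of 58 members called at the unadjusted threshold of 0.05. In that setting 1201 of 13119 genes were called (9.15%). The value of Pex16 thus depended on the probe set. Pex11 proteins elongate the organelle before it divides. Pex11a ran from 150 to 200.2 in young rats (median 187) and from 182 to 254 in aged rats (median 194), a log2 fold change of 0.18 (SE 0.10, exact permutation p = 0.119, adjusted p = 0.608), and 0.12 without aged rat 6. Pex11g had one of 0.07. Over all 14 peroxins tested, 8 were higher and 6 lower in mean, with a median of 0.04.

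ABCD proteins are half-transporters that carry acyl-CoA across the peroxisomal membrane, except Abcd4, which serves cobalamin export from the lysosome. Abcd4 had the smallest p of the group. Its signal was 128, 162 and 172 in the lowest, median and highest young rats, and 154, 175 and 253 in aged rats. The groups overlapped, with 3 aged rats above every young rat (log2 fold change 0.24, SE 0.13, 0.16 without aged rat 6, exact permutation p = 0.108, adjusted p = 0.595). Abcd3, a major protein of the peroxisomal membrane, averaged 586 ± 48.9 in young and 631 ± 128 in aged rats, a log2 fold change of 0.09. Aged rat 6 alone was at 879, and without it the value was -0.01. Abcd2, a transporter of very long-chain acyl-CoA, had a log2 fold change of 0.02.

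Of the 8 peroxisomal enzymes of oxidation and acyl transfer, 5 were higher and 3 lower in mean (median 0.07) and none was called. Crat, which interconverts acetyl-CoA and acetylcarnitine, averaged 577 ± 64.7 in young and 644 ± 52.4 in aged rats (log2 fold change 0.16, SE 0.09, exact permutation p = 0.0866, adjusted p = 0.598). Hsd17b4, the D-bifunctional protein that hydrates and dehydrogenates the chain, averaged 995 ± 75.0 and 1065 ± 71.5 (0.10, SE 0.07). Crot, which hands medium-chain products to carnitine, had a log2 fold change of 0.12, and 0.04 without aged rat 6. Without young rat 2 the value of Crat was 0.10. The auxiliary enzymes for unsaturated chains, Eci2 and Decr2, had log2 fold changes of -0.05 and -0.07, and the branched-chain oxidase Acox3 had 0.04.

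Both members with wide intervals belong to this group. Ehhadh, the L-bifunctional protein, was dim, at a mean of 41.3 in young and 32.7 in aged rats, with a log2 fold change of -0.54 (SE 0.36). Acox2, the oxidase of bile acid side chains, averaged 48.4 in young and 63.6 in aged rats. Its log2 fold change of 0.95 (SE 0.74, 95% interval -0.68 to 2.58) was the highest of all members, but young rat 1, at 2.24 and far below the cutoff, entered it. Without that rat the value was 0.18, below those of several other members. The value of Ehhadh was -0.31 without aged rat 3. At this signal a difference of the size seen in the brighter members was not detectable.

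Of the 5 long-chain acyl-CoA synthetases, 4 were lower in mean in aged rats (median -0.04), and none reached an unadjusted p of 0.05. Acsl4, which prefers arachidonic acid, ran from 3044 to 3999 in young rats (median 3496) and from 3052 to 3533 in aged rats (median 3199), a log2 fold change of -0.10 (SE 0.07, exact permutation p = 0.141, adjusted p = 0.68). Acsl5 averaged 1034 ± 65.2 in young and 998 ± 50.4 in aged rats (-0.05, SE 0.06). The log2 fold changes were -0.04 for Acsl3 and -0.04 for Acsl6, an isoform of brain that favours docosahexaenoic acid. Acsl1 alone was higher, at 0.06. These values are those of the brightest probe set of each gene. Dimmer probe sets went the other way, with log2 fold changes of 0.13 for Acsl5, 0.08 for Acsl6, and -0.08 and -0.77 for Acsl1.

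Of 8 thioesterases tested, 4 were higher and 4 lower in mean (median -0.01). Acot7, the main cytosolic acyl-CoA hydrolase of neurons, averaged 4015 ± 247 in young and 4039 ± 402 in aged rats, a log2 fold change of 0.01. Acot1, a cytosolic enzyme, averaged 63.7 ± 15.7 and 75.0 ± 14.1 (0.26, SE 0.19, and 0.10 without young rat 5), and Acot4, a peroxisomal one, averaged 127 ± 11.3 and 113 ± 19.6 (-0.18, SE 0.12, and -0.11 without aged rat 2). The untested Acot12 averaged 10.8 in young and 5.40 in aged rats, below the cutoff in both means.

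Carnitine palmitoyltransferases control the entry of long chains into mitochondria. All 4 were higher in mean in aged rats, with a median of 0.10, and none was called. Cpt1c, an isoform of neurons that sits in the endoplasmic reticulum and has little enzymatic activity, ran from 584 to 785 in young rats (median 671) and from 651 to 895 in aged rats (median 741). Only 1 aged rat was above every young rat (log2 fold change 0.17, SE 0.09, exact permutation p = 0.0909, adjusted p = 0.601). Cpt1a, the isoform of liver and astrocytes, averaged 648 ± 49.8 and 676 ± 44.9 (0.06, SE 0.07). With each array centred on its median, the value of Cpt1a was -0.0083.

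Acyl-CoA dehydrogenases catalyse the first step of each round and differ in the chain length they accept. Of 9, 6 were higher and 3 lower in mean (median 0.04). Acadm, for medium chains, was 534 in the lowest, 663 in the median and 820 in the highest young rat, and 661, 793 and 867 in aged rats. The ranges overlapped, with 2 aged rats above every young rat (log2 fold change 0.22, SE 0.10, exact permutation p = 0.0541, adjusted p = 0.556). Acads, for short chains, averaged 188 in young and 253 in aged rats (0.38, SE 0.20, exact permutation p = 0.0866, adjusted p = 0.598). Without aged rat 6 the value of Acads was 0.23. The very long-chain enzyme Acadvl and the long-chain enzyme Acadl each had a log2 fold change of 0.09, and Acad8 and Acadsb, which act in the breakdown of branched amino acids, had 0.04 and 0.01.

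Acad11, which accepts longer chains, was lower in mean. It ran from 182 to 218 in young rats (median 191) and from 126 to 204 in aged rats (median 171), with 4 aged rats below every young rat. The mean was 196 ± 12.8 in young and 170 ± 26.3 in aged rats, a log2 fold change of -0.22 (SE 0.10, exact permutation p = 0.039, adjusted p = 0.556). Acad9, which is also an assembly factor of respiratory complex I, had a log2 fold change of -0.08, and -0.0097 without aged rat 6. Acad10 likewise had -0.08, and 0.09 without aged rat 2. Without aged rat 2 the value of Acad11 was -0.14.

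With the brightest probe set of each gene, the enzymes after the first step were all higher in mean, 7 of 7. Their log2 fold changes ran from 0.0034 to 0.20, with a median of 0.08. Hadhb, the thiolase subunit of the trifunctional protein, had the smallest spread between rats of any member that was named. Its signal was 2824, 2905 and 2984 in the lowest, median and highest young rats, and 2968, 3077 and 3149 in aged rats. Only 1 aged rat lay within the young range. The mean was 2912 ± 55.6 in young and 3068 ± 63.7 in aged rats, a ratio of 1.05 and a log2 fold change of 0.08. The exact two-sided permutation test over rats gave p = 0.00433, unadjusted, whereas limma, which draws the variance of each gene toward that of all genes, gave p = 0.0838. With median centring the log2 fold change of Hadhb was 0.0045.

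Its partner Hadha, which carries the hydratase and dehydrogenase of the same complex, averaged 1417 in young and 1417 in aged rats (log2 fold change 0.0034). Eci1, which shifts double bonds so that unsaturated chains can be oxidised, averaged 426 ± 60.8 in young and 489 ± 54.8 in aged rats (0.20, SE 0.10, exact permutation p = 0.0931, adjusted p = 0.591). Hadh, the short-chain dehydrogenase, had a log2 fold change of 0.14, and the thiolase Acaa2, the hydratase Echs1 and the reductase Decr1 had 0.08, 0.07 and 0.05. None of the 7 was called.

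The carnitine palmitoyltransferases, dehydrogenases and later enzymes were counted as a mitochondrial group of 20. Of these, 17 were higher and 3 lower in mean (median 0.08). The name is loose, since the group holds Cpt1c, of the endoplasmic reticulum, and Acad8 and Acadsb, of branched amino acid breakdown. Each of them was higher in mean. Without the carnitine palmitoyltransferases, 13 of 16 were higher and 3 lower (median 0.07). A count without Acad8 and Acadsb was not made. In each rat, the median over the 20 genes of the log2 signal minus the young mean was taken. It was -0.05 in the lowest, -0.01 in the median and 0.14 in the highest young rat (young rat 3), and 0.0005, 0.08 and 0.17 in aged rats (highest in aged rat 6). All 6 aged rats were above 0 and the groups overlapped. All genes together also stood higher in aged rats, at 0.01 to 0.08 against -0.01 to 0.02 in young rats, with aged rat 6 again highest. The synthetases had a median below 0 in all 6 aged rats, from -0.17 to -0.03, and in 4 of 6 young rats, which ran from -0.06 to 0.10.

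**Figure D3:**
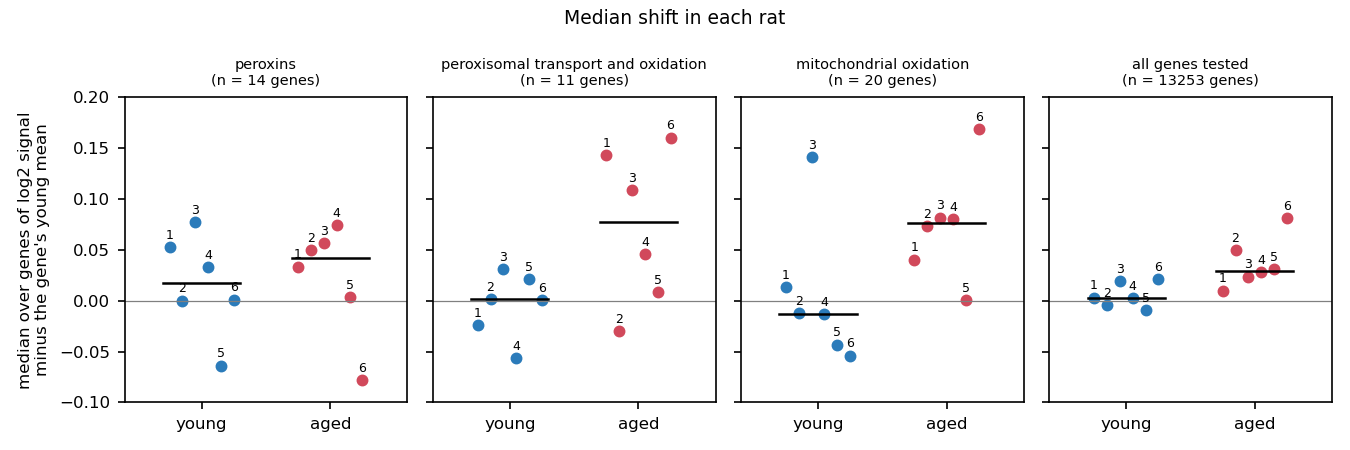
Median over genes of the log2 signal minus the mean of the young rats, for each of 6 young (blue) and 6 aged (red) rats, numbered by replicate, in 3 groups of members and over all 13253 genes. Horizontal lines are group medians. For the mitochondrial group all aged rats lie above 0, between 0.0005 and 0.17, while young rat 3 lies at 0.14, and for all genes aged rat 6 is highest at 0.08.

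How many members stood higher depended on the scaling of the arrays, because the median of all genes moved with it. It was 0.02 with the deposited values, 0.0019 after quantile normalization and -0.05 with each array centred on its median. The members higher in mean numbered 38, 35 and 26 of 58, and the mitochondrial genes 17, 16 and 12 of 20. Among genes with an unadjusted p up to 0.05, 860 were higher and 347 lower with the deposited values, 589 and 471 after quantile normalization, and 414 and 884 with median centring. The median of the members exceeded that of all genes by 0.03 with the deposited values and by 0.03 after quantile normalization, and median centring, which moves every gene by the same amount, leaves this difference as it is. Of the 20 mitochondrial genes, 75% lay above the median of all genes with the deposited values and 80% after quantile normalization.

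The import receptors and docking factors had a negative median under all 3 scalings (-0.07, -0.07 and -0.14), as did the synthetases (-0.04, -0.03 and -0.11). Receptor export had a positive one under all 3 (0.14, 0.11 and 0.07), as did the carnitine palmitoyltransferases (0.10, 0.04 and 0.03). The medians of the dehydrogenases (0.04, 0.0029 and -0.03) and of the thioesterases (-0.01, 0.02 and -0.08) changed sign.

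**Figure D4:**
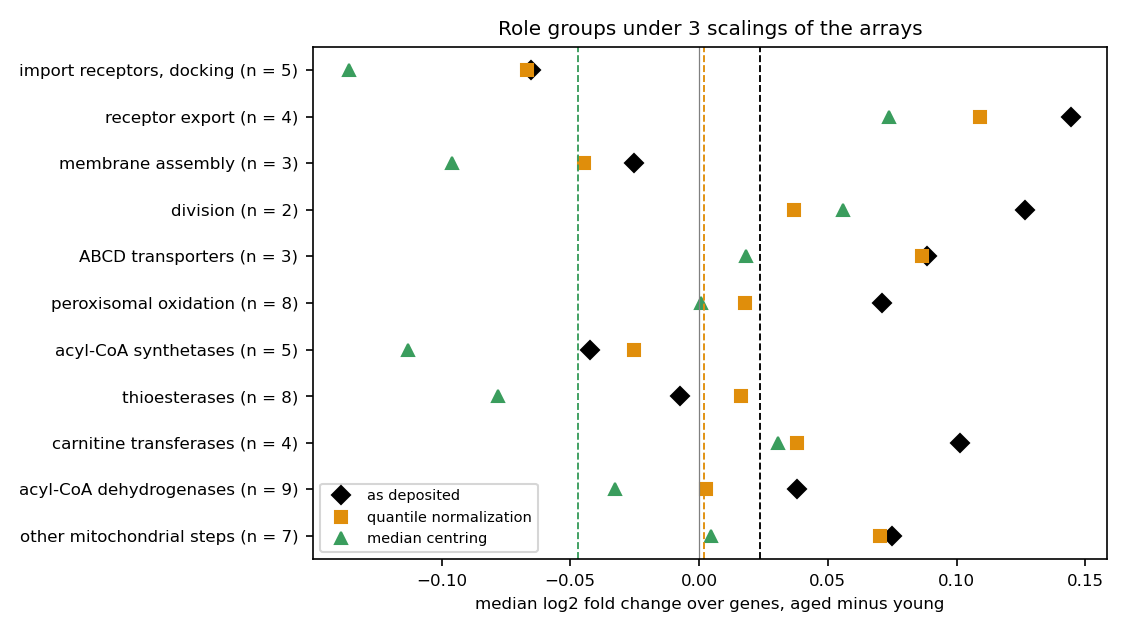
Median log2 fold change of each role group, aged minus young, with the deposited values (diamonds), after quantile normalization (squares) and with each array centred on its median (triangles). Dashed lines mark the median of all genes under each scaling (0.02, 0.0019 and -0.05), and the number of genes tested stands beside each group name.

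Several genes are read by more than 1 probe set, which matches another stretch of the transcript or another transcript form, and signals of different probe sets are not levels that can be compared. For 15 members more than 1 was tested, and in 9 of these the probe sets differed in direction. Those 9 were Acot2, Acsl1, Acsl5, Acsl6, Crot, Hadh, Hadha, Pex16 and Pex5. Some dim probe sets had large values. A dim one of Eci1 averaged 26.5 in young and 60.5 in aged rats (log2 fold change 1.83), and a dim one of Hadha 14.0 and 34.7 (1.84, limma adjusted p = 0.598 over 28193 probe sets), next to 0.20 and 0.0034 for the brightest ones. A dim probe set of Pex5l averaged 143 and 189 (0.42, adjusted p = 0.566). Averaged over its probe sets, Eci1 had a log2 fold change of 1.02, a value that its dim probe set entered.

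Other genes of these pathways were read from lists of genes that are no members, and none passed the adjusted test. Of 32 other peroxisomal genes tested, 19 were higher in mean (median 0.03), and 3 were higher and none lower at an unadjusted p up to 0.05 (9.38% called, against 9.11% of all genes). These were the membrane channel protein Pxmp2 (log2 fold change 0.21), the racemase Amacr (0.13) and malonyl-CoA decarboxylase, Mlycd (0.23), which removes the inhibitor of carnitine palmitoyltransferase. Of 16 genes of electron transfer, carnitine carriage and ketone bodies, none was higher and 2 were lower at that threshold (12.5% called, against 9.11% of all genes in either direction and 2.62% lower). Oxct1, which activates acetoacetate, averaged 4053 ± 334 in young and 3512 ± 360 in aged rats (-0.21, SE 0.08, limma adjusted p = 0.486), and Bdh1, which interconverts the ketone bodies, averaged 395 ± 51.2 and 309 ± 66.8 (-0.38, SE 0.15, adjusted p = 0.486). For both the ranges of the ages overlapped.

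Of 21 genes for PPAR receptors, coactivators and lipid uptake and storage, 14 were higher in mean (median 0.09), with 2 higher and none lower at an unadjusted p up to 0.05 (9.52% called, against 9.11%). They were Pnpla2, the first lipase of lipid droplets (0.26, SE 0.11), and Rxra, the partner receptor of the PPARs (0.64, SE 0.27), which was dim at a mean of 58.7 in young and 85.6 in aged rats.

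Sequences around the start site, 250 bases before to 50 after it, were given for 52 of the 59 members and were searched on both strands. The letters GGGCGG, a box bound by Sp1 and its relatives, were in 75.0% of the members' windows, in 57.8% of those of all genes tested and in 33.1% of all 33469 windows of this length. AGGTCA, the half-site of many nuclear receptors, was in 23.1% of the members' windows, 12.8% of those of genes tested and 16.2% of all. Of 15 mitochondrial members with a window, 5 held it, and of 11 peroxins 1 did. The longer AAGGTCA, which contains AGGTCA, was in 4 members (7.69%, against 3.18% of genes tested and 4.61% of all), namely Abcd2, Acad11, Hadhb and Pex11g. An exact form of the PPAR response element, a direct repeat of AGGTCA with any 1 base between the copies, was in 0 of 52 members. It was in 0.0324% of the windows of genes tested and in 0.0538% of all windows. A string this rare is likely to be absent from 52 windows of any kind, so its absence says nothing about the members. Elements with other letters or farther from the start were not searched for. CCAAT was in 36.5% of members, 37.1% of genes tested and 37.5% of all, and TATAAA in 11.5%, 7.86% and 14.2%.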

How the data were processed

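RNA of 12 rats was measured on 12 arrays, 1 per rat, with n = 6 per age. The deposited value of each probe set was a linear signal intensity, with a trimmed mean of 500.1 per array. MAS5, GCRMA and R 2.7.1 appear in the submitters' processing notes, and gcRMA in the study's methods. No source used here gives their order or roles, so the deposited values may differ from those the study tested. Values were tested as log2, not normalized again, at the methods' cutoff of 4.3.

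Of 31099 probe sets, 20832 had 1 symbol, 436 several and 9831 none, and 20764 of those with 1 symbol carried a gene ID of the RefSeq gene table. Only probe sets with 1 symbol were used, which left out 5 whose symbols include one the rule matches, and with them the peroxisomal thiolases Acaa1a and Acaa1b, which share a probe set and are no members here. A gene was tested above the cutoff on at least 3 arrays. The groups came from the labels, and the ages were compared with limma 3.58.1 (lmFit and eBayes, R 4.3.3), in two-sided tests adjusted by Benjamini-Hochberg over 13253 genes. Single genes also had exact permutation tests over rats, whose smallest possible p is 0.00216. The number of arrays limits the precision. The fit was tested on simulated data with added differences larger than that of any member. Recovery of differences as small as those reported here was therefore not tested. Figures were drawn with matplotlib 3.10.9 in Python 3.11.15.

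The members, the gene lists and the tests were chosen with earlier results of these data known. Named by rule were members with an unadjusted p up to 0.05, those with non-overlapping groups and the 2 smallest p of each role group (1 in groups under 3 genes), 21 in all. Other genes, and the sequences shown, were chosen after their values were seen. The marker lists gave these medians of the log2 fold change: astrocytes 0.05, oligodendrocytes 0.24, their progenitors 0.21, microglia 0.25, endothelium 0.17, neurons -0.08, cortex -0.04, blood 0.33, choroid plexus 0.16, and striatum, hippocampus and thalamus -0.10. None of their genes passed the adjusted test. The comparison of protein ends that had been planned was not made, since no protein sequences were used here. Alternatives were quantile normalization, median centring, a pseudocount of 32, no filter and a stricter one, other uses of the probe sets, other variance models, array weights, the methods' t-test, blocks for rat number and code series, each code series alone, and each rat left out.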

Additional observations from a re-analysis of the deposited data

Results flagged for a closer look

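Among the 42 groups of 6 rats of the named members, 5 held 1 rat far from the others, where chance gives about 1 in 20. Young rat 5 was low for Pex7, at a signal of 213 with the nearest young rat at 283, and for Pex2, at 397 with the nearest at 449. Young rat 4 was low for Abcd4, at 128 with the nearest at 154, and high for Acsl5, at 1159 with the nearest at 1042. Aged rat 6 was low for Pex3, at 602 with the nearest aged rat at 708. Young rat 5 lowered the young mean of both Pex7 and Pex2, which narrowed the difference for Pex7 and widened it for Pex2.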

How the results depend on the processing

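The median of the members was -0.015 with median centring and 0.04 to 0.07 when 1 rat was left out, against 0.06. The members past the adjusted threshold numbered 0 under every alternative except without young rat 5, where Pex7 passed, for a range of 0 to 1 over the rats left out. Without young rat 5, 5 of all 13253 genes passed. The higher members at an unadjusted p up to 0.05 numbered 1, and 0 with median centring and within the higher code series. Of 13253 genes, 860 were higher with the deposited values, 414 with median centring and 798 within that series. The higher members were 2 after quantile normalization, with an intensity trend and robust variances, with array weights, in the methods' t-test, with unequal variances and with the code series as a block, 4 with the probe sets of a gene averaged and 5 of 77 probe sets tested singly. Over all genes, 589 to 970 of 13253 were higher in the settings with 2 higher members. The count was 900 of 13119 with averaged probe sets, and 1598 of 28193 for single probe sets. Leaving out 1 rat gave 1 to 5 higher members, with 2 without young rat 2 or 4 or aged rat 1, 3 or 6, and 664 to 1058 higher genes of 13253. The lower members numbered 2, and 4 with median centring and 1 within the lower and 1 within the higher code series, and 2 to 3 with a rat left out. Of all 13253 genes, 347 were lower, and 884 with median centring. Within the lower and higher series 202 and 215 genes were lower, and 268 to 448 with a rat left out. At the methods' threshold the t-test called 2 higher and 1 lower member, and none after adjustment. The count of all genes in that t-test at this threshold is not given here. The rat numbers were not taken to pair the samples, since they are no stated litter or day and not every pair correlated over 0.1 (same-numbered rats correlated at -0.04 to 0.16, over 0.1 in 4 of 6 pairs, and 4 of 6 young rats correlated best with the aged rat of their own number, a hint from the data and not the design). With the replicate block, 5 members were higher and 2 lower at p up to 0.05 and 0 passed the adjusted threshold. Of all 13253 genes, 1091 were then higher and 408 lower, and 2 passed the adjusted threshold. Among the 21 members named by rule, those whose value changed sign were Abcd3 (-0.011 without aged rat 6, where leaving out another rat gave up to 0.13, and -0.000967 without aged rats 2 and 6), Cpt1a (-0.0083 with median centring, -0.00401 within the lower series), Acsl5 (0.038 for the mean of probe sets), Pex19 (0.018 without aged rats 2 and 6) and Pex3 (-0.033 with median centring, -0.045 within the higher series). Group medians moved beyond the spread between rats for the ABCD transporters (0.32), thioesterases (-0.12) and synthetases (-0.12) within the higher series, for the synthetases (-0.11) and peroxisomal enzymes (0.00061) with median centring, and for import receptors and docking (0.04) with every probe set. The causes were not tested. Signal over background limits the dimmest members, Ehhadh and Acox2.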
